A study of Arabidopsis thaliana with 8 samples.

Results

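Shoot apices of Arabidopsis thaliana grown at 26°C were compared with shoot apices of the same genotype grown at 22°C. The comparison took all 8 ATH1 GeneChip arrays of the series, 4 at 26°C and 4 at 22°C, and paired them within genotype. The genotypes were the wild type Col-0, the leaf-polarity mutant as2-1, the mutant rh10-1 and the double mutant as2-1 rh10-1, each with 1 array at each temperature. All plants were grown under long days and harvested at 15 days of age, and as2-1 had been outcrossed to Col-0. The rh10-1 allele, which affects the DEAD-box RNA helicase gene RH10 (AT5G60990), was found in a screen on as2-1 plants and strengthens the leaf phenotype of as2-1 as the growth temperature is raised. A pair is therefore 1 array against 1 array, and the spread is that between genotypes. A gene can pass the test although 1 genotype does not share the direction. The 4 arrays of each temperature form a set of their own, and so growth temperature and anything else that differed between both sets cannot be told apart. In whole apices, fewer cells of a type and less RNA per cell cannot be told apart either.

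Warmth within the range a plant tolerates speeds up elongation growth and flowering, and lowers the accumulation of anthocyanins, the red pigments that cooler or brighter growth favours. The cytosolic ribosome takes up a large share of the transcripts of dividing tissue, and its protein genes and the nucleolar genes that assemble it are commonly regulated together, with sugar supply as one input. Energy shortage acts through the kinase SnRK1, which raises transcripts for the breakdown of amino acids and lowers those for growth.

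Of 13075 genes measured by a probe set of their own, 8400 exceeded the 40th percentile of an array at least once and were tested. A gene is called here when its mean log2 difference (26°C minus 22°C, over the 4 pairs) had an adjusted p under 0.05 in limma. There were 1802 genes called higher at 26°C (21.5% of those tested) and 1438 called lower (17.1%). The median difference over all genes was 0.06. In 1838 genes every array at 26°C lay above every array at 22°C (21.9%), and in 1399 every array at 26°C lay below (16.7%). A difference of at least 2-fold in each of the 4 genotypes was found in 347 genes with higher signals at 26°C (4.13%) and 223 with lower signals (2.65%). The direction was shared by all 4 pairs in 1764 of the genes called higher and 1388 of those called lower, and by 3 pairs in the rest. Without the as2-1 pair 906 genes were called lower, and without the rh10-1 pair 950.

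Fewest large temperature differences were found in Col-0 and most in as2-1 rh10-1. At least 2-fold differences were counted in 934 higher and 745 lower genes in Col-0, and in 1348 higher and 1224 lower genes in the double mutant. The single mutants lay between, with 1168 higher and 928 lower genes for as2-1 and 1272 higher and 893 lower genes for rh10-1. Taken over genes, themselves not replicates, the differences of 2 genotypes correlated with Pearson's r of 0.51 to 0.70. The least alike were Col-0 and as2-1 rh10-1 (0.51), and the most alike were Col-0 with as2-1 and rh10-1 with the double mutant (0.70 each).

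The arrays had been scaled to a common level, with trimmed means of 198.2 to 198.3 at 26°C and 198.0 at 22°C and medians of 76.7 to 79.9 at 26°C and 69.7 to 76.5 at 22°C. Of 40 markers of cell types, 7 were measured and 3 passed the filter. CLV3, the stem cell marker of the shoot meristem, had signals of 0.9 to 11.8 at 26°C and 2.5 to 26.8 at 22°C. These lie around the 20th percentile of an array, 8.9 to 11.5, so that the labelled tissue was not visible in this gene. EXPA7, a root hair expansin, was likewise low, at 1.0 to 5.7 at 26°C and 3.6 to 11.6 at 22°C. PYK10, the beta-glucosidase listed here among root markers, was abundant at both temperatures, with signals of 4219.5 to 7679.3 at 26°C and 2236.2 to 2872.9 at 22°C. Its call (difference 0.97, adjusted p = 2.39e-03) moved with the temperature groups, and its part in the other results was not tested.

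**Figure D1:**
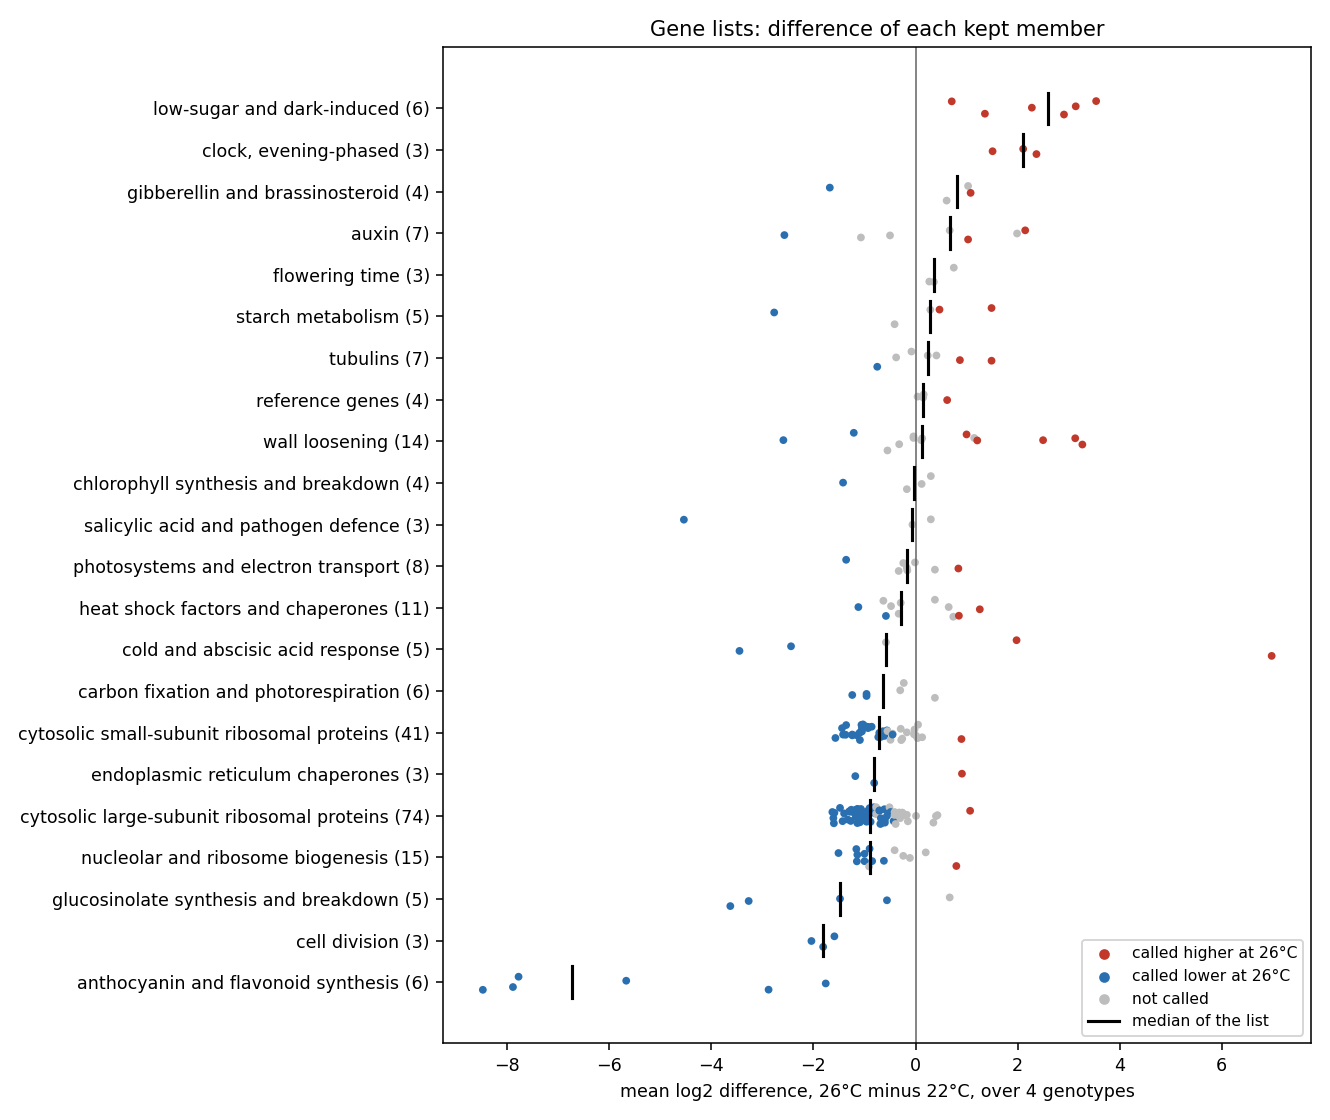
Mean log2 difference between 26°C and 22°C (horizontal axis) of each kept member of the 22 lists with at least 3 kept genes, with the number of kept genes in brackets. Points are genes, coloured by whether they were called, and the black bar is the median of the list. Anthocyanin and flavonoid synthesis lies furthest to the left with a median of -6.73 (-5.48 with the floor on low signals), and the low-sugar and dark-induced list furthest to the right with 2.59.

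The pigment pathway showed the lowest list median of the comparison. Of 36 listed genes of anthocyanin and flavonoid synthesis 7 were measured, 6 passed the filter on low signals, and these 6 were called lower at 26°C and at least 2-fold lower in every genotype. The share called lower over all genes was 17.1%, but DFR, AT4G14090, UF3GT and AT5MAT passed the filter only through their signals at 22°C, so that the count describes these genes and is not set against that share. The median difference was -6.73, and -5.48 with signals under the 20th percentile of an array set to that percentile, against 0.06 over all genes. Sets of 4 values below run from Col-0 through as2-1 and rh10-1 to the double mutant as2-1 rh10-1. DFR, dihydroflavonol reductase, which opens the anthocyanin branch of the pathway, had signals of 5.8, 13.6, 16.0 and 19.7 at 26°C, against 3122.9, 3452.6, 2342.0 and 2308.6 at 22°C. Every sample at 26°C thus had a signal close to the array's lower end, and every sample at 22°C a strong one. The difference was -7.78 ± 0.32 (SE, n = 4 pairs, adjusted p = 5.93e-06), or 220-fold, and 185-fold with that floor.

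UF3GT, a flavonoid glycosyltransferase, had signals of 27.5, 2.0, 2.1 and 2.7 at 26°C and 994.7, 1290.4, 909.4 and 840.8 at 22°C. Only Col-0 kept a signal above the 20th percentile at 26°C, and the fold is correspondingly uncertain, 237-fold as measured and 78.4-fold with that floor. AT5MAT, a malonyltransferase that decorates anthocyanins, had 2 of its 4 signals at 26°C under the 20th percentile, and its difference was -5.67 as measured and -4.66 with the floor. AT4G14090, a member of the list for which no name was available, had signals of 2.1 to 4.5 at 26°C and 694.7 to 1399.6 at 22°C. UGT78D2 and UGT78D1, glycosyltransferases that also serve the flavonols, retained more of their signal. UGT78D2 had 150.7, 111.6, 115.7 and 196.0 at 26°C and 1169.1, 1251.7, 1081.8 and 701.1 at 22°C (difference -2.88, adjusted p = 1.33e-04). UGT78D1 differed by -1.76. CHIL, a chalcone isomerase-like protein of the same pathway that was not on the list, had signals of 49.0, 53.9, 62.9 and 25.1 at 26°C and 1168.7, 1692.3, 838.6 and 762.6 at 22°C, a difference of -4.55 (adjusted p = 1.15e-05). In none of these 7 genes did the temperatures overlap, which again describes these genes and is not set against the share over all genes (16.7%).

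**Figure D2:**
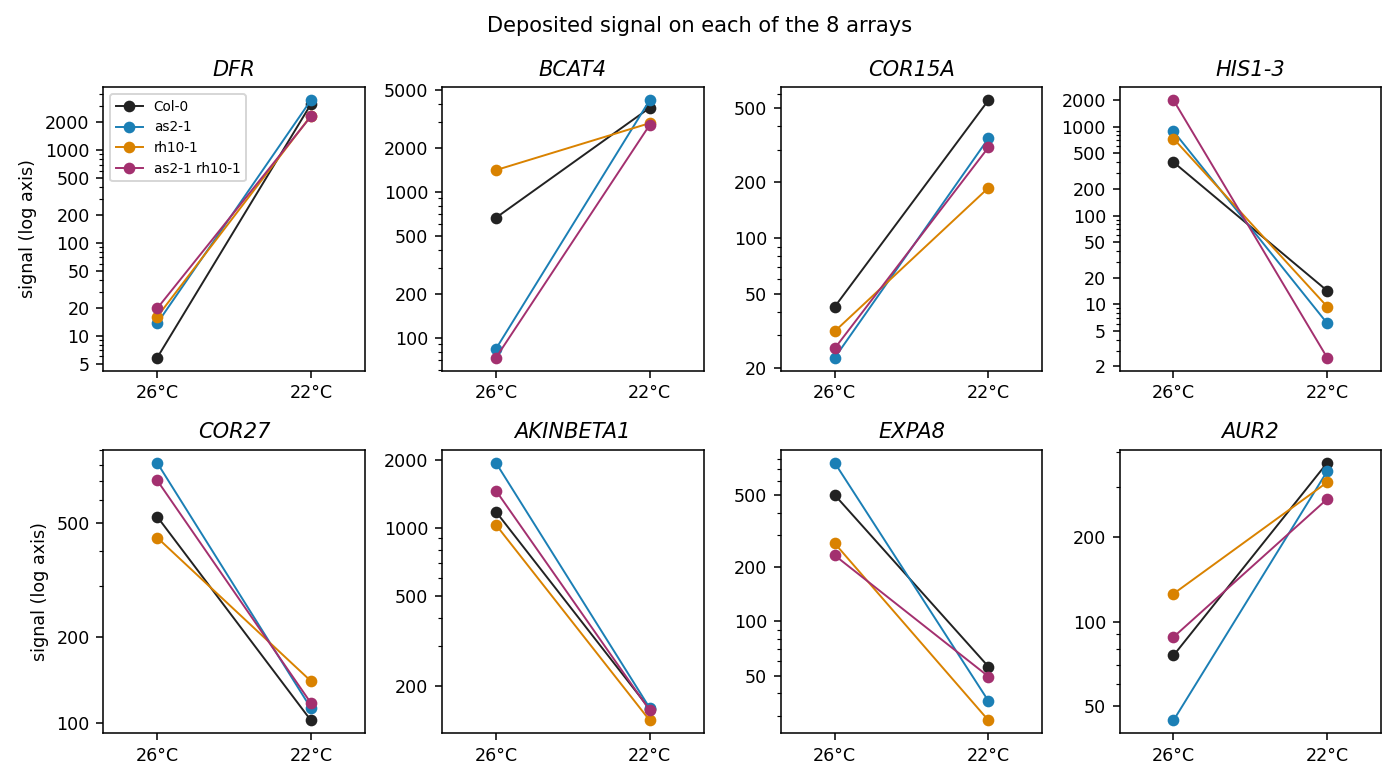
Deposited signal (vertical axis, logarithmic, arbitrary units) of 8 named genes at 26°C (left in each panel) and 22°C (right), with a line for each genotype. The temperatures do not overlap in any of the 8 genes. BCAT4 shows the split at 26°C between the genotypes with as2-1 (83.7 and 72.8) and those without it (662.2 and 1404.2).

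Transcripts for methionine-derived glucosinolates, the sulfur-rich defence compounds of the cabbage family, were lower at 26°C. BCAT4, GSTU20 and AT2G31790 had their larger decreases in both genotypes that carry as2-1. Of the 5 genes measured and kept, among 36 listed, 4 were called lower, against 17.1% of all genes, and the median difference was -1.48. BCAT4, the aminotransferase that starts the elongation of methionine side chains, had signals of 662.2, 83.7, 1404.2 and 72.8 at 26°C and 3749.3, 4232.4, 2944.8 and 2863.2 at 22°C. At 26°C both genotypes with as2-1 were lower than both without it, whereas the signals at 22°C were alike in all genotypes. The within-genotype differences were -5.66 and -5.30 with as2-1 and -2.50 and -1.07 without it, with a mean of -3.63 ± 0.66 (SE, n = 4 pairs, adjusted p = 3.00e-03). GSTU20, a tau-class glutathione transferase, had the same order, with 1128.5, 510.4, 1393.5 and 276.5 at 26°C and 6402.7, 7992.7, 5891.1 and 6312.5 at 22°C (9.62-fold lower). UGT74B1, which adds the glucose of the glucosinolate core, differed by only -0.56, and by -0.05 in rh10-1, and its call was lost without the Col-0, the as2-1 or the double-mutant pair (adjusted p of 0.0596 to 0.172). AT2G31790 differed by -1.48, with -2.23 and -1.75 in the genotypes with as2-1 and -1.20 and -0.76 in those without it. The fifth gene, AOP3, which modifies the side chain, had signals of 1.3 to 47.1 at 26°C and 0.8 to 19.0 at 22°C and was not called. Among the 3 genes kept of salicylic acid and pathogen defence, AT3G22240 was 23.3-fold lower at 26°C, with 114.0, 100.4, 103.9 and 83.8 against 4899.8, 2648.7, 1913.4 and 1175.9 at 22°C. WRKY53 and GRX480, which act in defence signalling, differed by 0.30 and -0.06 and were not called.

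Genes raised by darkness or sugar shortage were higher at 26°C as a group. All 6 kept genes of that list were called higher, against 21.5% of all genes, with a median difference of 2.59, and 4 of them were at least 2-fold higher in every genotype. AKINBETA1, a regulatory subunit of the SnRK1 kinase, had signals of 1178.2, 1935.6, 1031.7 and 1459.8 at 26°C, against 159.1, 160.7, 141.7 and 157.0 at 22°C. The signals at 22°C were nearly the same in all genotypes, and the increase was 8.82-fold (3.14 ± 0.17, SE, n = 4 pairs, adjusted p = 1.25e-05). MCCA and MCCB, both subunits of methylcrotonyl-CoA carboxylase, and IVD, isovaleryl-CoA dehydrogenase, act in the mitochondrial breakdown of leucine. MCCA differed by 2.28, IVD by 1.36 and MCCB by 0.71. In each of these 3 genes the smallest difference was that of Col-0 (1.15, 0.77 and 0.15) and the largest that of as2-1 rh10-1 (3.42, 1.78 and 1.38).

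The list's other members, AT3G15450 and AT5G19120, had the opposite order of genotypes. AT5G19120 had signals of 1707.3, 1946.0, 1697.2 and 1864.0 at 26°C and 42.7, 271.5, 331.9 and 853.6 at 22°C. It was thus level across genotypes at 26°C and lowest in Col-0 at 22°C, so that the difference was 5.32 for Col-0 but 1.13 for the double mutant. AT3G15450 differed by 4.83 in Col-0 but by 1.87 in the double mutant, with signals of 4334.9 to 7643.0 at 26°C and 152.9 to 2094.6 at 22°C. The call of MCCB was lost without any 1 of the 3 mutant pairs (adjusted p of 0.0548 to 0.101), which left 5 of the 6 genes called.

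Starch metabolism did not move as a group. Of its kept genes 2 were called higher, against 21.5% of all genes, 1 was called lower and 2 were not called. The gene called lower, APL3, passed the filter only through its signals at 22°C. Its call is therefore not set against the share over all genes (17.1%). APL3, a large subunit of ADP-glucose pyrophosphorylase, which makes the substrate of starch synthesis, had signals of 6.4, 28.4, 29.3 and 32.5 at 26°C and 219.5, 171.4, 129.2 and 78.1 at 22°C (difference -2.77 ± 0.53, SE, n = 4 pairs). QQS, a small protein linked to starch content, was higher by 1.49 (adjusted p = 0.0539 without the genotype block) and DPE1, a glucanotransferase of starch breakdown, by 0.47. The call of DPE1 was lost after quantile normalization (adjusted p = 0.0616), with each array centred on its median, and without any 1 pair.

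The largest groups of genes to move together encoded the cytosolic ribosome. Both ribosomal lists were written from knowledge of the gene families, 1 of the 115 kept genes (PGY1) carries a name in the annotation used, and the others are given by their locus codes. Of the 41 kept genes listed for the small subunit, 27 were called lower and 1 higher at 26°C, with a median difference of -0.71. Of the 74 kept for the large subunit, 55 were called lower and 1 higher, with a median of -0.89. Together 71.3% were called lower, against 17.1% of all genes. In 76 of the 115 all arrays at 26°C lay below all arrays at 22°C, against 16.7% of all genes. The decreases were moderate, down to -1.57 in the small subunit and -1.63 in the large one, and only 1 gene was at least 2-fold lower in every genotype.

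The largest decrease was that of AT3G16780, listed for the large subunit, with signals of 1057.6, 768.2, 1115.6 and 942.6 at 26°C and 1983.6, 2428.9, 4716.8 and 3497.3 at 22°C. The signals at 26°C spanned a narrow range, while those at 22°C were highest in rh10-1 and lowest in Col-0. AT3G04840, listed for the small subunit, repeated this with 3213.0, 2514.4, 3477.8 and 2190.5 at 26°C and 6034.3, 6346.4, 10462.1 and 8263.8 at 22°C. PGY1 (PIGGYBACK1), a large-subunit protein named for its effect on leaf shape in as1 plants, had 2469.1, 3412.4, 3562.2 and 2819.0 at 26°C and 3920.9, 4553.5, 5634.3 and 5563.9 at 22°C (difference -0.68 ± 0.15, SE, n = 4 pairs, adjusted p = 8.51e-03). The temperatures did not overlap in any of these 3 genes. AT5G59240, AT4G30800 and AT3G10610 of the small subunit and AT1G07070, AT2G20450 and AT5G22440 of the large subunit had differences between -1.37 and -1.61.

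Both members called higher went against the rest of their lists. AT3G13580 had signals of 3443.5, 3720.5, 3643.0 and 3516.3 at 26°C and 1523.8, 1371.9, 1836.2 and 2205.2 at 22°C. AT5G39850 had 544.7, 538.0, 764.7 and 833.0 at 26°C and 136.6, 269.2, 628.6 and 665.6 at 22°C, with overlap between the temperatures, and its call was lost without the Col-0 or the as2-1 pair (adjusted p = 0.0545 and 0.0921).

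The decrease of the ribosomal genes differed in size between genotypes. The geometric mean signal of the 115 genes was 2055, 1804, 2218 and 1842 at 26°C, against 2543, 3070, 4247 and 3717 at 22°C. At 26°C the median log2 levels relative to Col-0 were -0.22 for as2-1, 0.07 for rh10-1 and -0.19 for the double mutant. At 22°C all 3 mutants lay above Col-0, by 0.26, 0.68 and 0.48 in the same order. For as2-1 the distance from Col-0 was thus of similar size at both temperatures but of opposite sign, below Col-0 at 26°C and above it at 22°C. The median within-genotype difference was accordingly -0.38 in Col-0, against -0.90 for as2-1, -1.0 for rh10-1 and -1.11 for the double mutant. Only 6 ribosomal genes were at least 2-fold lower at 26°C in Col-0, whereas as2-1 had 46 such genes, rh10-1 had 57 and the double mutant had 67. Col-0 had the smallest decrease of the 4 genotypes in 99 of the 115 genes. With 1 array for each condition this difference between genotypes could not be tested, and members of one complex on the same arrays are not independent of each other. Quantile normalization, which evens out the distribution of all arrays, gave medians of -0.50 for the small subunit and -0.71 for the large one.

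**Figure D3:**
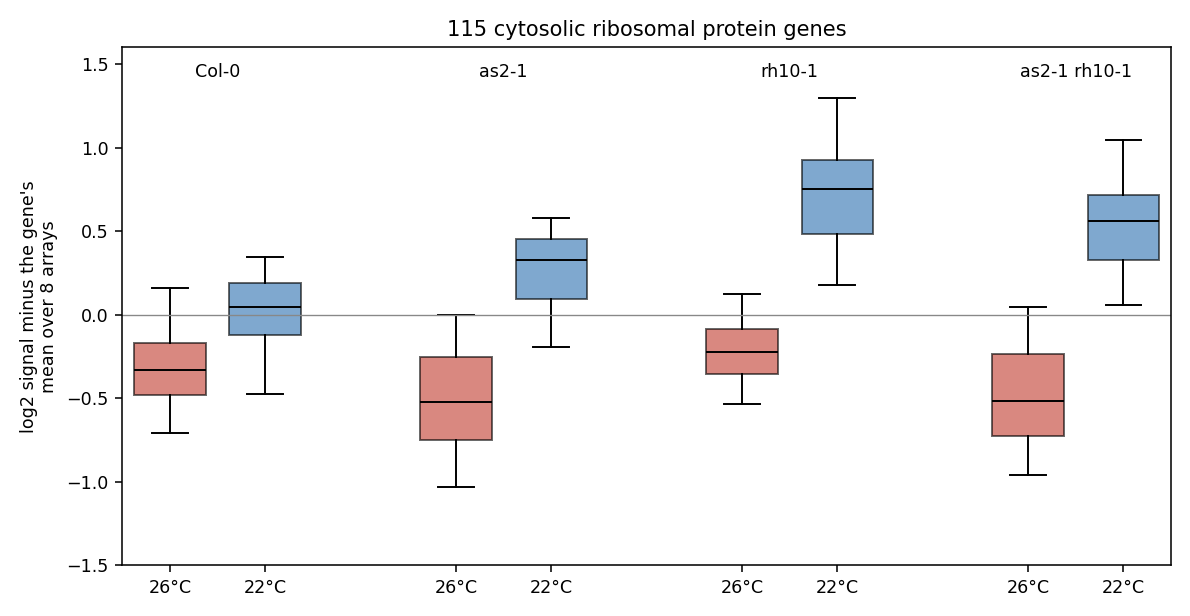
Log2 signal of 115 cytosolic ribosomal protein genes on each array, relative to each gene's mean over the 8 arrays (vertical axis), for 26°C (red, left of each pair) and 22°C (blue, right of each pair) in the 4 genotypes. Boxes show the quartiles and the median, and whiskers run between percentiles 5 and 95. The boxes at 26°C lie closer together than those at 22°C, where the box is lowest in Col-0 and highest in rh10-1.

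Nucleolar and ribosome assembly genes had lower signals at 26°C, with the median of Col-0 close to 0. Of the 15 kept genes, among 38 listed, 9 were called lower at 26°C and 1 higher, against 17.1% and 21.5% of all genes, with a median difference of -0.90. Within genotypes the median was -0.02 for Col-0, whereas as2-1 had -1.0, rh10-1 had -0.78 and the double mutant had -1.42. The geometric mean signal of the list was 500, 388, 593 and 377 at 26°C and 487, 675, 918 and 914 at 22°C, so that Col-0 had nearly the same mean level at both temperatures. Its members nevertheless went both ways, and 8 of the 15 were lower at 26°C in all 4 genotypes, Col-0 included, as were 2000 of the 8400 genes tested. Without the as2-1 pair 5 genes were called lower.

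The targeted gene of rh10-1 belonged to this list. RH10 had signals of 347.8, 293.4, 394.1 and 261.1 at 26°C and 352.2, 439.1, 677.1 and 553.8 at 22°C. In Col-0 the 2 signals were nearly equal, while the 3 mutants were lower at 26°C, and the mean difference was -0.62 ± 0.19 (SE, n = 4 pairs, adjusted p = 0.0307). The call was lost without the as2-1, the rh10-1 or the as2-1 rh10-1 pair (adjusted p of 0.0968 to 0.123) and in limma without an intensity trend. YAO, a nucleolar protein of gametogenesis, had 269.7, 182.9, 273.3 and 151.5 at 26°C and 246.8, 315.5, 559.1 and 496.9 at 22°C, again with Col-0 apart from the mutants and a call lost without any 1 mutant pair (adjusted p of 0.0838 to 0.117). AT3G15460 was lower in all 4 genotypes, with 172.2, 91.4, 200.2 and 133.7 at 26°C and 332.7, 392.5, 431.3 and 495.5 at 22°C, the largest decrease of the list (-1.51). AT3G05060, AT5G62440 and AT1G52930 differed by -1.16, -1.15 and -1.14. PRH75, a nucleolar DEAD-box RNA helicase, was the exception, with 2979.2, 2047.4, 2917.3 and 1676.6 at 26°C and 974.8, 1114.3, 1939.6 and 1554.0 at 22°C. Its difference was 1.61 in Col-0 but 0.11 in the double mutant, and the call was lost without the as2-1 or the rh10-1 pair (adjusted p = 0.0861 and 0.0613).

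The Aurora kinases AUR1 and AUR2 and a replication gene were lower at 26°C in all genotypes. They were the only 3 genes measured of the 30 on the cell division list, and all 3 were called lower, against 17.1% of all genes, with a median difference of -1.81. AUR2, an Aurora kinase of the mitotic spindle and cell plate, had signals of 75.8, 44.6, 125.5 and 88.1 at 26°C and 366.1, 341.9, 312.3 and 272.3 at 22°C, a 4.11-fold decrease (-2.04 ± 0.26, SE, n = 4 pairs, adjusted p = 5.88e-04). AUR1, its close relative, had 87.3, 59.7, 173.7 and 182.4 at 26°C and 430.5, 417.8, 385.8 and 360.1 at 22°C. PRL (MCM7), a subunit of the replicative helicase, had 292.0, 194.2, 263.6 and 140.4 at 26°C and 691.5, 714.3, 675.2 and 513.1 at 22°C. All 3 had every array at 26°C below every array at 22°C, against 16.7% of all genes. AUR1 and AUR2 were reduced more in Col-0 and as2-1 than in the genotypes with rh10-1. AUR3, another Aurora kinase, and KINESIN-13A, which are not on the list, were not called, with differences of -0.59 and -0.30. The following genes lie outside the rule for named genes and were chosen after their values were seen, and so lend no support to the list. ARR15 and RR16, type-A response regulators that are induced by cytokinin and dampen its signal, differed by -1.75 and -1.35. SPCH, which starts the stomatal lineage in young epidermis, had 71.4, 25.1, 27.5 and 15.8 at 26°C and 118.7, 124.7, 96.2 and 74.8 at 22°C. FMA, which acts at the end of that lineage, had a difference of -0.52 and was not called.

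The few clock-regulated genes measured, of both phases, were called higher at 26°C. All 3 genes measured of the 15 on the evening-phased list were called higher, against 21.5% of all genes, with a median difference of 2.11. On the morning-phased list 2 of 20 genes were measured and both were called higher, AT5G52660 by 0.89 and AT1G69570 by 1.86, or 1.32 with the floor. The call of AT5G52660 was lost without the Col-0, the as2-1 or the double-mutant pair (adjusted p of 0.055 to 0.0859). That of AT1G69570 was lost without the Col-0, the rh10-1 or the double-mutant pair (adjusted p of 0.089 to 0.114). AT1G69570 also had 3 of its 4 signals at 22°C under the 20th percentile of their array. It passed the filter only through its signal of 47.3 in as2-1 at 26°C. The count of the morning-phased list therefore describes these genes and is not set against a share over all genes. COR27, a regulator of clock and cold genes, had 526.4, 811.8, 444.7 and 705.0 at 26°C and 102.1, 112.7, 140.1 and 117.4 at 22°C (2.37 ± 0.20, SE, n = 4 pairs, adjusted p = 1.26e-04). AT4G33980 had 210.2, 237.3, 170.8 and 239.3 at 26°C and 23.4, 49.5, 92.6 and 55.4 at 22°C, likewise without overlap. GI, which links the clock to flowering, did not differ in all genotypes. Its signals were 482.8, 420.4, 183.8 and 103.6 at 26°C and 81.7, 63.3, 103.1 and 109.3 at 22°C, and the difference of 2.56 in Col-0 and 2.73 in as2-1 contrasted with 0.83 in rh10-1 and -0.08 in as2-1 rh10-1. The call of GI was lost without the Col-0 or the as2-1 pair (adjusted p = 0.0695 and 0.0929). The hour of harvest is not given in the sources used here, and its part in these differences was not tested.

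Cold- and abscisic acid-responsive genes split into opposite directions. COR15A and COR15B, which protect chloroplast membranes in the cold, were lower at 26°C. COR15A had signals of 42.7, 22.7, 31.5 and 25.5 at 26°C, against 553.1, 344.9, 186.7 and 308.5 at 22°C, a 10.9-fold decrease (-3.45 ± 0.24, SE, n = 4 pairs, adjusted p = 4.89e-05). COR15B had 73.7, 74.2, 52.2 and 30.6 at 26°C and 231.6, 292.1, 305.7 and 370.2 at 22°C. COR47, a dehydrin, was higher instead, with 2670.9, 2874.9, 1389.6 and 3042.2 at 26°C and 649.2, 695.8, 440.0 and 665.6 at 22°C. In HIS1-3, a linker histone induced by drought and abscisic acid, the difference was larger than in any other gene called higher. It had 398.7, 889.1, 734.7 and 1991.0 at 26°C and 14.2, 6.1, 9.4 and 2.5 at 22°C, where 3 of the 4 signals lay under the 20th percentile of their array. The difference was 6.98 ± 0.62 (SE, n = 4 pairs, adjusted p = 1.34e-04), and 6.26 with signals set to that floor. LTI30, a further dehydrin, had a difference of -0.58 and was not called. All 4 called genes of this list were without overlap and at least 2-fold different in every genotype. HIS1-3 passed the filter only through its signals at 26°C and COR15A only through those at 22°C. The count therefore describes these genes and is not set against a share over all genes.

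Of 60 listed heat shock factors and chaperones only 14 were measured, so that the class is poorly covered. Among the 11 kept, 2 were called higher, 2 lower and 7 were not called, with a median difference of -0.29. The share called lower was close to that over all genes (17.1%). Hop3, 1 of those called higher, passed the filter only through its signals at 26°C. The count called higher is therefore not set against the share over all genes (21.5%). AT3G09440 had signals of 1270.8, 746.8, 899.9 and 766.4 at 26°C and 1661.0, 1860.6, 2392.5 and 1957.7 at 22°C (difference -1.12, adjusted p = 2.58e-03). AT2G19310 differed by 1.26, with 198.2, 205.5, 250.2 and 370.6 at 26°C and 118.5, 103.4, 102.7 and 90.0 at 22°C. Hop2 and Hop3, co-chaperones that join Hsp70 to Hsp90, differed by -0.58 and 0.85, and their calls were lost under several alternatives (adjusted p of 0.0502 to 0.152), Hop3 also after quantile normalization (adjusted p = 0.0592). Hsp70-2, a cytosolic chaperone, and HSA32, which prolongs acquired heat tolerance, were not called, with differences of -0.63 and 0.74. HSA32 had 47.7, 64.6, 74.6 and 169.5 at 26°C and 46.6, 46.8, 46.6 and 49.7 at 22°C, so that as2-1 rh10-1 stood highest at 26°C.

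Of the 3 kept genes for protein folding in the endoplasmic reticulum, CRT1b, a calreticulin, had 945.1, 778.0, 844.4 and 713.7 at 26°C and 2280.5, 1918.1, 1687.7 and 1573.0 at 22°C. ATERDJ3B, a co-chaperone of BiP, differed by -0.81. BZIP60, the transcription factor of the unfolded protein response, had 319.5, 362.2, 271.5 and 341.1 at 26°C and 191.2, 169.5, 150.2 and 177.1 at 22°C. The regulator and both chaperones thus went in opposite directions, each with non-overlapping temperatures. Over all genes 21.9% lay above at 26°C without overlap and 16.7% below.

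Hormone and growth genes moved singly rather than as lists. Among 7 auxin genes, 2 were called higher and 1 lower, against 21.5% and 17.1% of all genes. All 3 encode enzymes of the GH3 family, which conjugate auxin to amino acids. WES1 (GH3.5) had signals of 610.7, 831.0, 420.5 and 784.2 at 26°C and 196.6, 131.4, 115.9 and 143.9 at 22°C, a 4.44-fold increase (2.15 ± 0.20, SE, n = 4 pairs, adjusted p = 1.49e-04). GH3.17 was higher by 1.03, with 0.34 in Col-0 and 1.96 in as2-1 rh10-1. GH3.3 had 96.2, 70.7, 50.4 and 3.0 at 26°C and 264.8, 149.9, 218.8 and 145.4 at 22°C. IAA29, an auxin-responsive repressor known as a target of the warmth regulator PIF4, had 55.1, 46.8, 29.6 and 18.3 at 26°C and 1.7, 19.2, 5.4 and 31.7 at 22°C. It was higher in 3 genotypes and lower in as2-1 rh10-1 (mean 1.99, or 1.06 with the floor, adjusted p = 0.113). It was the only gene kept of the warm-temperature growth list, so that this function is hardly measured here. GID1A, a gibberellin receptor, was higher by 1.08 (adjusted p = 1.59e-03). EXO, a brassinosteroid-induced growth gene, had 606.6, 586.9, 507.1 and 417.8 at 26°C and 546.5, 1436.3, 3286.0 and 3073.5 at 22°C, so that the difference was 0.15 for Col-0 but -2.88 for the double mutant. Its call was lost without the rh10-1 pair (adjusted p = 0.0807).

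Wall-loosening genes contained strong differences of both signs, with 5 of 14 called higher and 2 called lower, and a median of 0.12. The share called lower over all genes was 17.1%. Of those called higher, EXPA16 (1.21) passed the filter only through its signals at 26°C. The count called higher therefore describes these genes and is not set against the share over all genes (21.5%). EXPA8, an expansin, had signals of 502.9, 758.8, 271.1 and 232.5 at 26°C and 56.0, 36.1, 28.2 and 49.4 at 22°C, a 9.61-fold increase (adjusted p = 1.49e-04). EXPB3, an expansin of the beta class, had 123.4, 196.3, 114.9 and 257.4 at 26°C and 1063.2, 1075.8, 1007.1 and 828.2 at 22°C. Neither gene overlapped between temperatures. EXLA1, an expansin-like protein, and XTH19, a xyloglucan endotransglucosylase/hydrolase, were called higher. EXLA1 had signals of 96.0 to 353.0 at 26°C and 4.0 to 123.3 at 22°C, and XTH19 had 28.7, 154.3, 87.7 and 77.4 at 26°C and 1.6, 9.5, 51.2 and 38.2 at 22°C. Signals at 22°C were under the 20th percentile in Col-0 for EXLA1 and in Col-0 and as2-1 for XTH19, and the mean differences were 3.13 and 2.50 as measured and 2.75 and 1.78 with the floor. Both calls were lost without the as2-1 pair (adjusted p = 0.0545 and 0.0712). Within the wall-loosening list, the median difference was 0.58 in Col-0 and 1.25 in as2-1, and -0.24 in rh10-1 and 0.11 in as2-1 rh10-1.

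Among 7 tubulins, TUA1 was higher by 1.49, TUB6 higher by 0.87 and TUB7 lower by 0.75 on the log2 scale, and the others were not called. Over all genes 21.5% were called higher and 17.1% lower. Without the as2-1 pair TUB6 was not called (adjusted p = 0.0551). TUA1 had 195.2, 232.7, 344.4 and 410.7 at 26°C and 107.4, 117.9, 66.3 and 124.1 at 22°C. None of the 3 flowering-time genes kept was called. FD, the bZIP partner of florigen in the shoot apex, had 52.3, 47.5, 54.4 and 34.5 at 26°C and 37.8, 33.2, 18.1 and 25.5 at 22°C, with a difference of 0.75 (adjusted p = 0.108). AGL24 and SMZ differed by 0.36 and 0.27.

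Most genes of the photosystems were not called, whereas several genes of carbon fixation were lower at 26°C. Of 8 kept photosystem and electron transport genes, 1 was called higher and 1 lower, against 21.5% and 17.1% of all genes. The other 6 were not called, and the median difference of the list was -0.16. PSBW, a photosystem II subunit, had a difference of -0.01, with 3222.3, 3235.4, 3037.3 and 2637.1 at 26°C and 2941.9, 3108.0, 2325.9 and 4068.1 at 22°C. PSAE-1, a photosystem I subunit, had one of -0.16. The 2 called genes were both minor antenna proteins of photosystem II, and they moved in opposite directions. LHCB4.3 had signals of 78.1, 111.0, 122.1 and 160.9 at 26°C, against 376.4, 389.8, 237.9 and 211.1 at 22°C. LHCB4.2 differed by 0.84, a call lost without the as2-1 or the rh10-1 pair (adjusted p = 0.123 and 0.113). LHCB4.3 was lower by 2.27 in Col-0 and by 0.39 in as2-1 rh10-1, on the log2 scale.

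Of 6 genes of carbon fixation and photorespiration, among 29 listed, 3 were called lower, against 17.1% of all genes, with a median difference of -0.63. SBPASE, sedoheptulose-bisphosphatase of the Calvin-Benson cycle, had 1290.2, 1187.0, 1180.9 and 1004.5 at 26°C and 2789.0, 2802.6, 2503.6 and 2901.1 at 22°C (-1.24 ± 0.15, SE, n = 4 pairs, adjusted p = 4.67e-04). RCA, Rubisco activase, had 3789.0, 3617.7, 4897.4 and 4107.4 at 26°C and 7119.9, 6936.2, 8650.7 and 9245.0 at 22°C. AT1G11860 differed by -0.96, as did RCA. These 3 genes had nearly the same difference in every genotype, with SDs over the 4 pairs of 0.20, 0.15 and 0.07. Of 4 chlorophyll genes CHLI2, a subunit of magnesium chelatase, was called lower, with 249.4, 163.8, 175.5 and 101.3 at 26°C and 339.2, 469.6, 487.9 and 481.7 at 22°C. CHLM, a methyltransferase of the same pathway, and PORB, protochlorophyllide oxidoreductase, had differences of -0.17 and 0.12 and were not called.

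Among called genes whose lower temperature mean exceeded the 20th percentile of probe sets, the largest differences were mostly in genes with a locus code alone. AT2G05540 led the higher genes with 3973.3, 3389.3, 3497.9 and 5764.7 at 26°C and 32.1, 131.2, 36.5 and 255.0 at 22°C, a 51.3-fold increase (5.68 ± 0.39, SE, n = 4 pairs, adjusted p = 4.85e-05). Other genes with no signal under the 20th percentile of an array were AT1G22890 (4.44), AT1G19540 (4.28), AT2G15960 (4.14), AT1G21680 (3.80), AT1G67865 (3.76), scpl31, a serine carboxypeptidase-like protein (3.65), and AT3G15450 (3.54). AT2G20670 and AT2G15880 had such signals at 22°C, and their differences were 4.87 and 4.11 as measured and 4.28 and 3.43 with the floor. AT1G22890 was the most even of them over genotypes, with 1065.9, 1552.7, 789.0 and 1585.1 at 26°C and 65.1, 59.1, 38.8 and 62.3 at 22°C. Besides DFR, CHIL, AT3G22240 and BCAT4, the lower genes were AT5G59330 (-4.28) and AT1G31690 (-3.82), and 4 genes with a signal under the 20th percentile at 26°C. With the floor these had differences of -3.91 (AT5G33370), -3.24 (AT3G26960), -3.12 (AT2G33850) and -3.39 (AT1G06830). AT1G31690 had 32.1, 37.5, 29.3 and 38.8 at 26°C and 326.0, 494.4, 586.2 and 572.5 at 22°C. AT2G33850 rested largely on as2-1 rh10-1, where the signal was 1.5 at 26°C and 1001.3 at 22°C. Its call was lost without the rh10-1 pair and without the genotype block (adjusted p = 0.0626 and 0.0552).

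YAB5, the only leaf polarity gene given here, and 3 of 4 reference genes had small differences and were not called. AS2 is not analysed here. Other leaf polarity genes were not examined, so that nothing is said of them as a class. YAB5, an abaxial YABBY gene, had signals of 62.6, 176.2, 68.1 and 218.0 at 26°C and 89.9, 182.9, 93.6 and 245.8 at 22°C. It followed the as2-1 genotype at both temperatures and was somewhat lower at 26°C in all 4 genotypes (-0.30, adjusted p = 0.187). Of 4 reference genes, AT2G28390, AT2G32170 and AT4G34270 had differences of 0.15, 0.16 and 0.04 and were not called. PEX4, a ubiquitin-conjugating enzyme often used as a reference transcript, was higher at 26°C in all genotypes, with 895.2, 804.6, 647.5 and 850.9 against 503.4, 526.5, 510.7 and 527.6 at 22°C (0.62 ± 0.15, SE, n = 4 pairs, adjusted p = 0.0105), though the call was lost without the as2-1 pair (0.0573).

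Set side by side within each genotype, the lists fell into those with the same direction throughout and those that depended on genotype. Anthocyanin and flavonoid synthesis (-6.19, -6.65, -5.57 and -6.54) and low-sugar and dark-induced genes (2.02, 2.75, 2.11 and 1.82) had medians of 1 direction in all genotypes, with every member in that direction. Cell division had medians of -2.27, -2.81, -1.32 and -1.63 and carbon fixation of -0.67, -0.49, -0.70 and -0.80. The photosystem list had medians of both signs (-0.12, 0.15, 0.19 and -0.48), as did wall loosening.

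**Figure D4:**
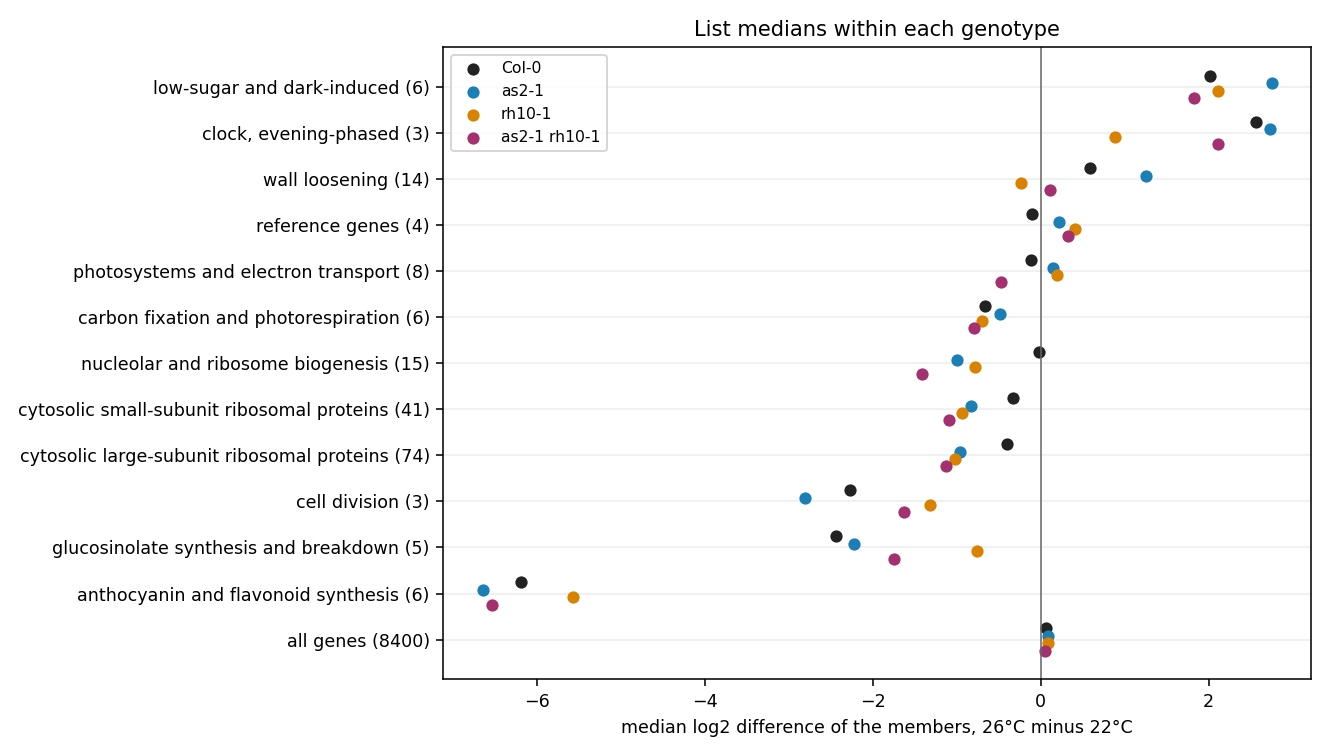
Median log2 difference between 26°C and 22°C (horizontal axis) over the members of 12 lists and over all genes, with a point for each genotype and the number of genes in brackets. The medians for anthocyanin synthesis lie between -6.65 and -5.57 in all genotypes, while those for nucleolar genes run from -1.42 in as2-1 rh10-1 to -0.02 in Col-0.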

How the data were processed

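Total RNA of shoot apices was labelled and hybridised to ATH1 arrays, and the authors computed a linear signal intensity for each of 22746 probe sets with GCOS, scaled between arrays. These deposited intensity values were used without further scaling. A signal of 0 (9 values) was set to 0.1 before log2. Of 13513 probe sets with exactly 1 gene, 283 ending in _s_at or _x_at were left out, which gave 13075 genes, each by its brightest probe set. The 8730 probe sets with no gene named here were used only in 1 alternative. Names came from the platform annotation and RefSeq (TAIR10.1). Detection calls were not used. The number of arrays, 1 for each condition, limits the precision.

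Log2 signals of all 8 arrays were modelled on genotype and temperature with limma 3.58.1 in R 4.3.3 (eBayes with an intensity trend, 3 residual degrees of freedom), with Benjamini-Hochberg adjustment over the 8400 genes kept. Nothing says whether arrays came from more than 1 harvest, and so p-values measure only the spread between these arrays. On simulated data for this comparison over 8400 genes, a true log2 change of 1 was found in 44 of 100 genes and one of 2 in 79 of 100, and 5 unchanged genes were called. The simulation left 8200 genes unchanged and drew independent noise with no effect of array set. Far more genes were called in the data, and so these rates do not carry over to the comparison. The genes named were the 10 with the largest difference in each direction with all pairs alike and the lower mean above the 20th percentile, up to 4 called genes for each list of at least 3 kept genes, up to 2 flat members of flat lists, the reference genes, and AS2, RH10 and YAB5. Further list members are given where they complete a list. Of 42 lists 22 had at least 3 kept genes. The comparison, its members and the lists were chosen with earlier results of these data known. Lists are described by counts and medians. A planned search for promoter motifs was not run, since no promoter sequences were given. The alternatives were quantile normalization, median centring, a floor, 3 other filters, 3 other choices of probe sets, no intensity trend, no genotype block, and leaving out each genotype pair. Python 3.11.15, pandas 2.3.3, numpy 2.4.6 and matplotlib 3.10.9 were used.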

Additional observations from a re-analysis of the deposited data

Results flagged for a closer look

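Among 170 groups of 4 arrays and 22 sets of list medians, 8 held a value far from the other 3 by Dixon's ratio. Chance sets apart about 1 in 20 groups, so that 8 is no more than chance alone would give. COR47 stood apart at both temperatures in rh10-1, with 1389.6 at 26°C and 440.0 at 22°C, each the lowest of its group. UF3GT at 26°C stood apart in Col-0, with 27.5 against 2.0 to 2.7 in the mutants, and APL3 at 26°C in Col-0, with 6.4 against 28.4 to 32.5. ATERDJ3B at 26°C stood apart in as2-1 rh10-1 (353.2, against 501.1 to 538.4). At 22°C, CHLI2 stood apart in Col-0 (339.2, against 469.6 to 487.9) and PRL in as2-1 rh10-1 (513.1, against 675.2 to 714.3). The median difference of the chlorophyll list stood apart in as2-1 rh10-1, with -0.53, where the other genotypes had 0.08 to 0.19.

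The 6978 kept probe sets with no gene named here, or with several, were outside the comparison. Of these, 326 had signals 2-fold or more higher at 26°C in all 4 genotypes, 243 had signals 2-fold or more lower, and 1518 were called higher and 1446 lower.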

How the results depend on the processing

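Each of the 4 counts over all genes stayed within 1.5-fold under the alternatives to normalization, floor, filter, moderation and block. With all probe sets, named or not, 3315 were called higher and 2877 lower, and 680 had a 2-fold or larger increase and 468 a decrease of that size in all 4 genotypes, over 15495 probe sets in place of 8400 genes. The share of calls that were higher was 55.6%, 49.4% after quantile normalization and 46.9% with each array centred on its median. Leaving out a genotype pair gave 1204 to 1803 genes called higher and 906 to 1443 called lower. The lowest count of genes called lower, 906, came without as2-1, and 950 came without rh10-1. Counts of 2-fold differences in the remaining pairs were 390 to 558 higher and 251 to 390 lower, the largest without Col-0, as fewer pairs have to pass. The anthocyanin median was -5.48 with the floor. Leaving out a pair gave 5 to 10 nucleolar genes called lower (5 without as2-1), 20 to 29 small-subunit and 43 to 60 large-subunit genes called lower, and 6 anthocyanin and 5 to 6 low-sugar genes called. Of 81 called genes picked by the rule for named genes, 67 kept their call under all 15 alternatives that tested them and none changed sign. Further list members given in the text are outside this count. Of these, MCCB, YAO, PRH75, AT5G39850, AT5G52660, AT1G69570, EXPA16 and ARR15 each lost the call under at least 1 alternative. Reference genes near 0 did change sign. AT4G34270 had -0.06 after quantile normalization, -0.05 after centring and -0.12 to 0.11 when a pair was left out, and AT2G32170 had -0.03 to 0.35. Signals near the 20th percentile of an array limit folds of genes nearly off at 1 temperature.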

Other observations

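Several gene families that no list covered were looked up by symbol after the strongest differences had been seen, and all kept members of each are counted. The autophagy proteins moved together. Of 10 kept genes, nearly all of them ATG8 proteins, which coat the growing autophagosome, 9 were called higher at 26°C, against 21.5% of all genes. The median difference was 1.02. In all 10 the arrays at 26°C lay above those at 22°C. ATG8H passed the filter only through its signals at 26°C. The count without overlap therefore describes these genes and is not set against the share over all genes (21.9%). ATG8B had signals of 303.2, 330.4, 395.5 and 436.8 at 26°C and 54.3, 57.1, 91.5 and 77.1 at 22°C in the same order of genotypes as in the report (2.41 ± 0.16, SE, n = 4 pairs). ATG8E was higher by 1.94 and ATG8F by 1.58. ATG8H, at 0.70, did not pass the test (adjusted p = 0.0833).

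Most genes of chromosome duplication and mitosis found by symbol were called lower, and PRL, AUR1 and AUR2 of the report recur among them. The share called lower over all genes was 17.1%. Of 7 kept histone genes 5 were called lower. HTB2, a histone H2B, had 447.4, 443.3, 569.0 and 483.1 at 26°C and 2367.5, 2070.6, 2219.1 and 1511.6 at 22°C. HTB1, of the same class, differed by -2.22, and HIS1-3 was the only one called higher. Of 5 replication genes 4 were called lower, among them TOPII, DNA topoisomerase II, with 142.3, 85.5, 155.3 and 166.0 at 26°C and 660.4, 546.5, 390.8 and 476.0 at 22°C. Of 8 kinesins, Aurora kinases and checkpoint proteins 6 were called lower, led by KINESIN-12B (-2.26) of the phragmoplast, which guides the new cell wall, while AUR3 and KINESIN-13A were not called.

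For the next 3 families, the shares over all genes were 21.5% called higher and 17.1% called lower. Among 4 jacalin-related lectins 3 were called higher, with JAL33 at 2.38 and JAL34 at 2.13. Of 11 ubiquitin-conjugating enzymes 4 were called higher and 2 lower. UBC28 had 7747.3, 8321.1, 7731.4 and 8978.8 at 26°C and 2124.8, 1720.2, 1285.6 and 2017.4 at 22°C, and UBC20 differed by -1.54. Of 5 tau glutathione transferases GSTU20 and GSTU26 were called lower (-3.27 and -3.00) and 1 was called higher.

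Of 66 kept genes of the plastid genome, 5 were called higher and 11 lower, against 21.5% and 17.1% of all genes, with a median of -0.13. Of the 5, psbE, psbF, psbL and psbJ lie in 1 transcription unit of photosystem II, with differences of 1.00, 0.66, 0.62 and 0.69, and the fifth was psbA (0.54). The largest decrease among those called was that of rps16 (-1.30). Of 9 genes with mitochondrial symbols 5 were called higher (nad1, nad5, nad9, cox1 and cox2), against 21.5% of all genes, with differences of 1.27 to 2.58. The labelling starts from poly(A) tails, which few organelle transcripts carry, and copies of organelle sequence in the nuclear genome may share these probes. The part of either in the differences was not tested.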
